A study of Mus musculus with 12 samples.

Results

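CTCF peaks at the promoters of ribosomal protein genes were examined in 3 organs (brain, heart and lung) of E18.5 mouse embryos, late in gestation. The members were the protein-coding genes whose symbol is Rpl, Rps or Rplp followed by a number and, for some, the letter a, x or y. This rule found 75 genes among 21938 nuclear protein-coding genes of the GENCODE annotation of mouse genome GRCm38 (mm10), 46 for proteins of the large (60S) ribosomal subunit and 29 for proteins of the small (40S) subunit. The study compared wild-type C57BL/6 embryos (C57BL/6 N in the study's methods) with embryos homozygous for R567W, an exchange of arginine for tryptophan in a zinc finger of CTCF that was introduced by CRISPR/Cas9 editing of the Ctcf gene. Each organ and genotype was represented by 1 CTCF ChIP library, so 6 peak lists were available and no difference below has a replicate check. How many embryos went into a library was not given in the sources used here, and peak lists carry no expression values against which the organ labels could be checked. A promoter peak was a peak whose summit lay within 1 kb of an annotated start site of the gene.

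The zinc fingers of CTCF recognise a long GC-rich core motif and, at a subset of sites, an additional motif upstream of it. CTCF is best known as the protein at which cohesin stops to form chromatin loops. Ribosomal protein genes are among the most strongly and evenly transcribed genes of every cell. Their promoters are short and rich in CpG, lack a typical TATA box in most cases and in many cases start transcription at a C within a run of C and T bases. That run becomes the 5′ terminal oligopyrimidine tract through which mTOR signalling controls translation of their mRNAs.

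To find core motifs, a 19-column matrix was built from strong wild-type brain peaks, and its most frequent letters read 5′ tggccaccagggggcgcca 3′. The sites below are those of 4 of the 5 members with the highest CTCF summits over all lists, each with the 30 bases 5′ of the core motif in lower case and the core motif in capitals, read 5′ to 3′ on the strand of the motif from GRCm38. All of them lay upstream of every annotated start of their gene and in no annotated exon or intron.
Rplp0, chr5:115559257-115559305, plus strand: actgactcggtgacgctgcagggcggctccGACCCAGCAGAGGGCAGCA
Rpl36, chr17:56613295-56613343, plus strand: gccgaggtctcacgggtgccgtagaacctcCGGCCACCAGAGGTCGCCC
Rpl5, chr5:107900432-107900480, plus strand: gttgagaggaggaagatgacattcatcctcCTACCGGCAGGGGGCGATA
Rpl26, chr11:68901432-68901480, plus strand: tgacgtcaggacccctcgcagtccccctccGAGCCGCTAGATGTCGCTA
The 4 sites read along the same strand as their gene, and relative to the nearest start the core motif was centred at −31 bp at Rpl5, −82 bp at Rpl36, −112 bp at Rpl26 and −171 bp at Rplp0, negative values being upstream.

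In every list the share of ribosomal protein genes with a promoter peak was above that of all protein-coding genes. In brain, 38 of the 75 wild-type promoters (50.7%, 95% Wilson interval 39.6 to 61.7%) and 50 of the mutant ones (66.7%, 55.4 to 76.3%) had a peak, beside 24.1% and 34.3% of all protein-coding genes. In heart, 26 wild-type (34.7%, 24.9 to 45.9%) and 20 mutant promoters (26.7%, 17.98 to 37.6%) had one, beside 14.6% and 10.2%. In lung, the numbers were 45 (60.0%, 48.7 to 70.3%) and 40 (53.3%, 42.2 to 64.2%), beside 33.2% and 27.5%. These intervals cover counting error only. The level of the shares moved with the peak threshold and list length. With peaks of a −log10 q of at least 5, wild-type brain held 33 members (44%, beside 21.1%) and wild-type lung 36 (48%, beside 24.99%), and with both lists of an organ cut to equal length wild-type heart held 16 (21.3%, beside 7.14%) and wild-type lung 29 (38.7%, beside 17.6%). Other lists of widely expressed genes gave lower shares in each of the 6 lists. Mitochondrial ribosomal protein genes reached 35.9% in wild-type brain, 24.4% in wild-type heart and 48.7% in wild-type lung, and proteasome subunit genes 30.8%, 20.5% and 41.0%. Translation initiation and elongation factor genes reached 26.5%, 22.1% and 47.1%. In the wild-type organs these intervals overlapped those of the ribosomal protein genes, except that of the translation factor genes in brain (17.4 to 38.0%), and the differences between gene lists were not tested. Of 1093 olfactory receptor genes, which are mostly silent outside the nose, 1085 (99.3%) had no promoter peak in any list.

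**Figure D1:**
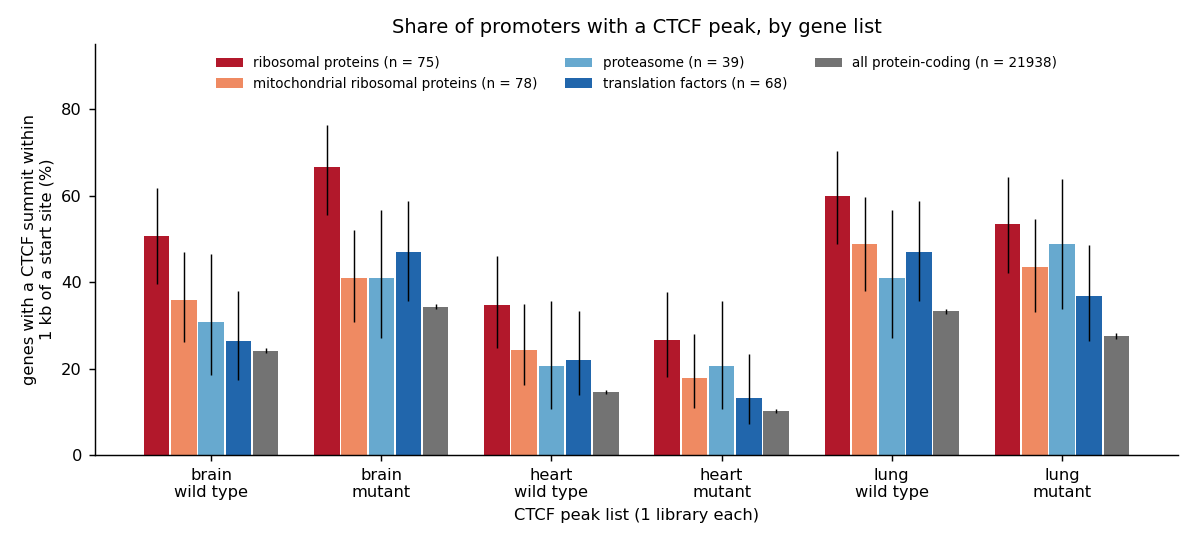
Percent of genes with a CTCF summit within 1 kb of a start site (vertical axis) in each of the 6 peak lists (horizontal axis), for 5 gene lists; bars give the share and lines the 95% Wilson interval, which covers counting error only. The ribosomal protein genes are highest in each list, at 50.7% in wild-type brain against 24.1% of all protein-coding genes.

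A total of 19 members (25.3%) had a promoter peak in all 6 lists, beside 9.06% of all protein-coding genes, and another 19 (25.3%) had none in any list, beside 56.5%. Each of these groups held 12 of the 46 large-subunit genes and 7 of the 29 small-subunit genes. The members present in every list included Rpl5, Rpl10a, Rpl11, Rpl13a, Rpl26, Rpl27, Rpl36, Rpl36a, Rpl37, Rpl38, Rplp0, Rps4x, Rps14, Rps15, Rps19 and Rps29. Among them are both proteins that accompany 5S rRNA into the large subunit, Rpl5 and Rpl11, and the stalk protein Rplp0, on which translation factors dock. The members with no peak were Rpl6, Rpl8, Rpl9, Rpl12, Rpl13, Rpl19, Rpl24, Rpl28, Rpl30, Rpl31, Rpl35a, Rplp1, Rps3, Rps6, Rps7, Rps21, Rps23, Rps27 and Rps28. They include Rps6, the substrate of S6 kinase, and Rplp1, a partner of Rplp0 in the stalk. Some of them had a summit between 1 and 2 kb from a start. Rpl24 had one at 1535 to 1543 bp in both brain and both lung lists, with 16 to 55 reads, and Rps28 one at 1840 to 1868 bp in the same 4 lists, with 21 to 26 reads. Rpl6 had one of 14 reads at 1856 bp in wild-type lung and one of 10 reads at 1994 bp in mutant brain. A further 7 members (beside 4.75% of all protein-coding genes) were in 5 lists. Of these, 6 were absent only from mutant heart, the shortest list, among them Rpl23a, Rpl32, Rps9, Rps18 and Rps26, and Rps20 only from wild-type heart.

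The members of each heart list, the shortest of its genotype, were contained in those of brain and lung, whereas brain and lung overlapped in part. All 26 members with a peak in wild-type heart also had one in wild-type brain and in wild-type lung, whereas over all protein-coding genes 92.5% and 97.1% of the wild-type heart genes did. Of the 38 wild-type brain members, 34 (89.5%) were also in wild-type lung, beside 88.1% of all protein-coding genes. Of the 45 wild-type lung members, 34 (75.6%) were in wild-type brain, beside 63.9%. All 20 members of mutant heart were in mutant brain and mutant lung, as were 99.3% and 99.1% of all protein-coding genes with a mutant heart peak.

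**Figure D2:**
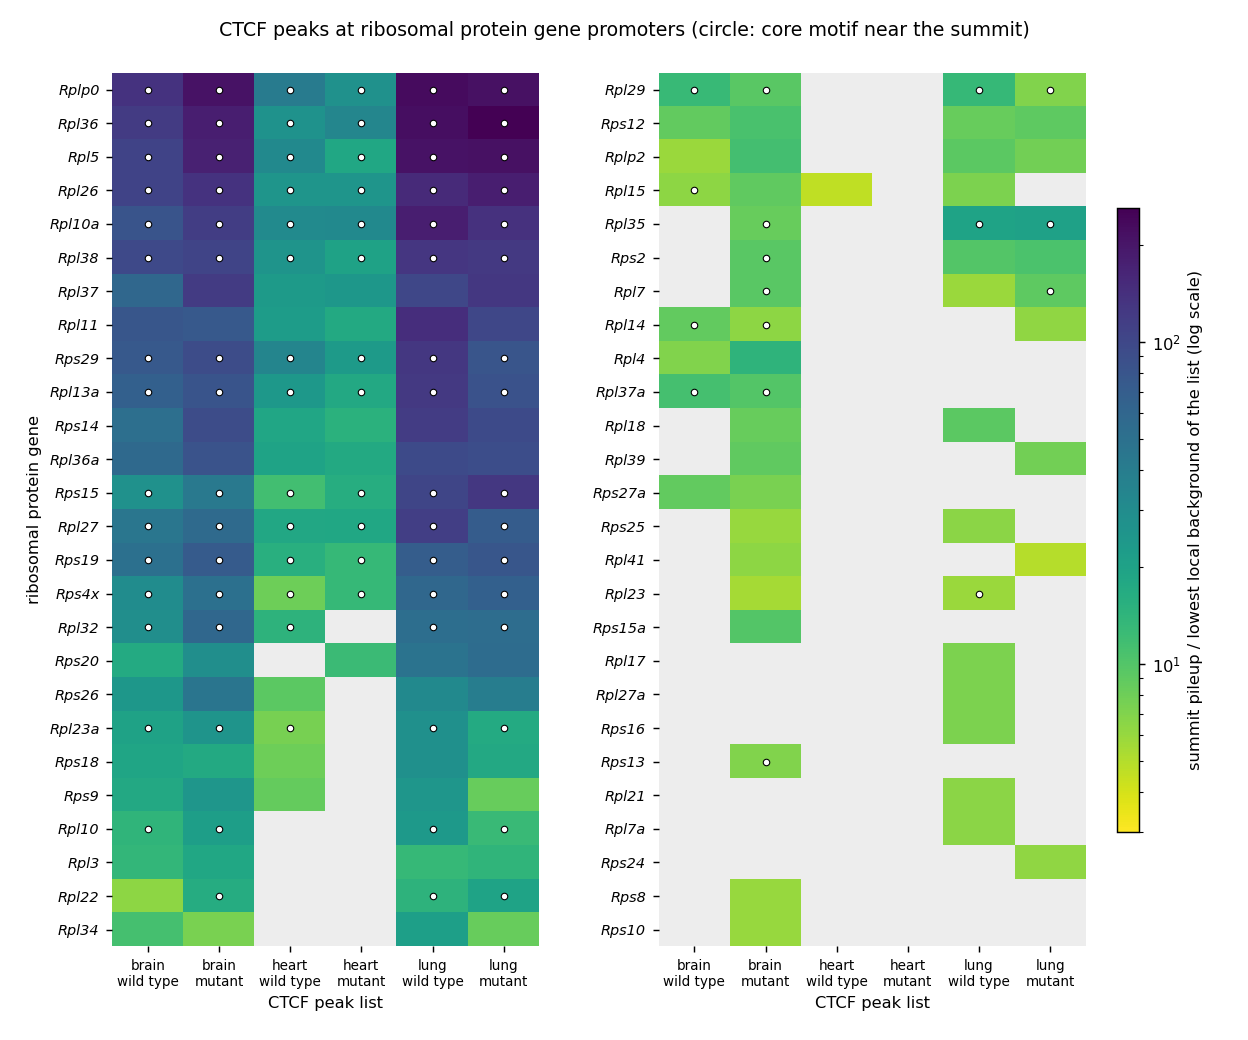
Summit pileup divided by the lowest local background of the list (colour, log scale) for 52 of the 56 members with at least 1 promoter peak (rows, ordered by the number of lists and then by mean height) in the 6 lists (columns); grey marks no peak and a white circle a core motif within 100 bp of the summit. The 16 members at the top of the left panel are filled in all 6 lists, and heart is empty for nearly all rows of the right panel.

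Summit height was read as the pileup, the number of overlapping ChIP fragments at the summit, recovered from the fold enrichment and p-value of each deposited peak. Pileups are not corrected for depth. The lowest local background, a proxy for depth, ranged from 1.42 reads in mutant lung to 2.02 in mutant brain. At the start of Rplp0 the summit reached 231 reads in wild-type and 426 in mutant brain, with 71 and 52 for heart and 349 and 302 for lung. For Rpl36 the pileup in the same order was 204, 361, 46, 64, 339 and 382. At both genes heart was lowest in both genotypes and lung was above brain in the wild type. The medians over all peaks of the wild-type lists had this order too, at 29 reads for heart, 40 for brain and 55 for lung. Rpl5 held 182 reads in wild-type brain against 346 in the mutant, 54 and 35 for heart, 319 and 304 for lung. Rpl26, a large-subunit protein at the exit tunnel, held 179 and 271 reads, 44 and 49, and 235 and 254, respectively. Apart from Rpl5 in mutant heart, at a percentile of 59.9 within its list, the lowest percentile of these 4 genes was 85.1, that of Rpl26 in wild-type heart. The ribosomal protein gene Rps3a1, which the symbol rule leaves out and which was looked up after its value was seen, stood at a like height, with 229 reads in wild-type brain against 390 in the mutant, 53 and 72 for heart, 341 and 343 for lung.

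Across all members with a peak, the median percentile of summit height within the list was 56.7 in wild-type brain, 69.2 in wild-type heart and 43.4 in wild-type lung, beside 46.3, 44.0 and 33.8 for all protein-coding promoter peaks. The mutant lists gave 58.9 (brain), 63.6 (heart) and 66.5 (lung), beside 50.1, 54.0 and 40.9. The members' median was above that of promoter peaks in all 6 lists. At the members' peaks in wild-type lung the median local background was 2.89 times the lowest of that list, whereas in the other lists this ratio was between 1.18 and 1.57, so wild-type lung fold enrichments are lowered relative to pileups.

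Most summits lay just upstream of the start. In wild-type brain 32 of 38 member summits (84.2%) were upstream of the nearest start of their gene, beside 58.9% of all protein-coding promoter peaks. In wild-type heart the count was 24 of 26 (92.3%, beside 62.8%), and in wild-type lung 35 of 45 (77.8%, beside 57.4%). The median distance to the nearest start was 96.5 bp in wild-type brain, 127 bp in wild-type heart and 136 bp in wild-type lung, beside 203, 197 and 178 bp. At the 19 members present in every list the 6 summits spanned between 9 and 58 bp, as at Rplp0, where all 6 summits fell between −156 and −137 bp from the start, and at Rpl36, where all 6 fell between −86 and −68 bp. Of the 46 members in 2 or more lists, 33 had all their summits within 100 bp, and the other 13 had summits up to 1012 bp apart. The farthest summit inside the 1 kb limit was that of Rps2 in mutant brain, at 894 bp with 19 reads, and the summit of Rpl34 in wild-type brain lay at 809 bp, also with 19 reads. The nearest outside it were those of Rpl7 in mutant heart, wild-type brain and wild-type heart, at 1110, 1117 and 1129 bp, with 41, 59 and 24 reads. Of the 219 member peaks, 4 lay nearer to a start of another protein-coding gene, at Rpl7a, Rps10 and Rps18.

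**Figure D3:**
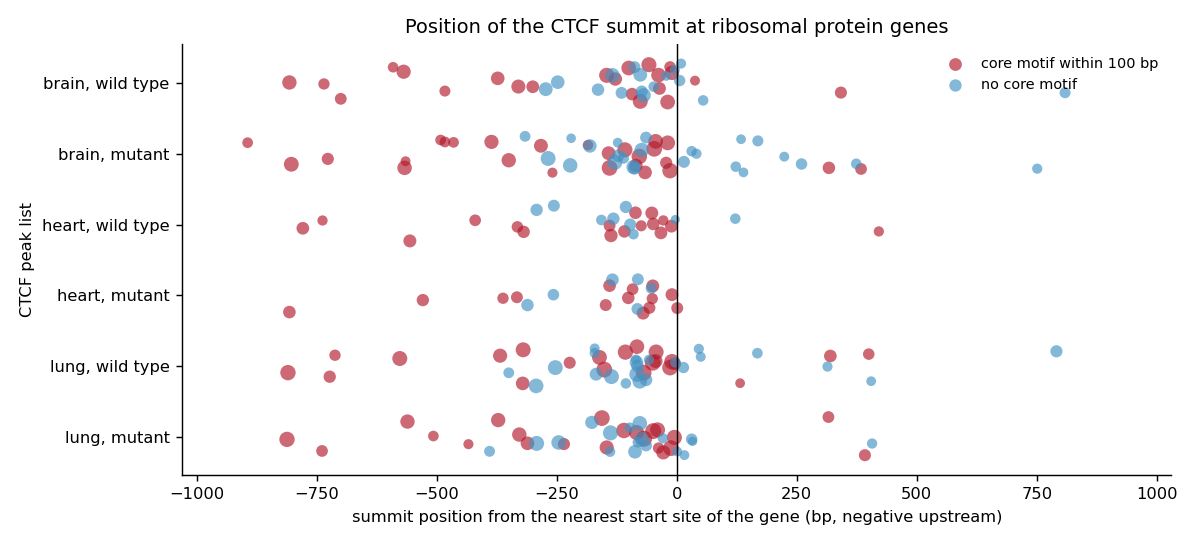
Distance in bp from the summit to the nearest start site of the gene (horizontal axis, negative values upstream) for each member peak in the 6 lists (rows); red points have the core motif within 100 bp of the summit, blue points do not, and larger points have a higher pileup relative to the lowest background. In wild-type brain 32 of 38 summits lie upstream.

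The core motif was called at a lower share of member peaks than of all peaks of the same list. Within 100 bp of the summit it was found at 22 of 38 member peaks in wild-type brain (57.9%, 42.2 to 72.1%), 17 of 26 in wild-type heart (65.4%, 46.2 to 80.6%) and 22 of 45 in wild-type lung (48.9%, 35.0 to 63.0%). The shares among promoter peaks of all protein-coding genes were 68.1%, 73.1% and 57.1%, and among all peaks of the list 87.2%, 90.4% and 83.6%. Among the mutant lists, 26 of 50 member peaks held it in brain, 14 of 20 in heart and 22 of 40 in lung, beside 58.6%, 83.4% and 63.9% of promoter peaks. In windows 1100 bp away the motif was called at about 6% of all peaks. In all 6 lists the members' interval lay below the share of all peaks and included that of promoter peaks. The shares depended on the limit on the match probability. At 1e-05 in place of 1e-04 the motif was called at 11 member peaks in wild-type brain (28.9%, beside 37.5% of promoter peaks and 67.5% of all peaks), at 11 in wild-type heart (42.3%, beside 46.4% and 73.8%) and at 12 in wild-type lung (26.7%, beside 28.6% and 62.9%), and both statements on the intervals held in all 6 lists.

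The 56 members with a peak fell into those with the core motif at every listed peak (22 members), at some (6) and at none (28). Of the 22, 14 were in all 6 lists, and of the 28, 5 were. Over all protein-coding genes 37.3% of the former kind and 5.42% of the latter were in all 6 lists. Summits with the motif were higher, with a median of 81 against 29.5 reads in wild-type brain, 44 against 32 in wild-type heart and 163.5 against 15 in wild-type lung, although the ranges overlapped in every list. The 5 members present in all lists without a motif called within 100 bp of a summit included Rpl11, Rpl36a, Rpl37 and Rps14. Rpl37 did have a called motif in the promoter window used further below. Rpl11 held 134 reads in wild-type brain against 152 in the mutant, 38 and 33 for heart, 223 and 142 for lung. Rpl37 held 100 and 240, 40 and 47, and 154 and 180 in these lists. Within 100 bp of a summit the best matches of these 5 members had a match probability between 0.00011 (Rpl36a) and 0.00071 (Rps14). Rpl36a thus fell just short of the limit of 1e-04, whereas Rpl23, at 0.0001, was just inside it. Whether these peaks rest on a weaker form of the motif was not tested.

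A core motif was found in 2 or more lists at 25 sites. Beside the 14 members with the motif in every list, which included Rpl5, Rpl10a, Rpl13a, Rpl26, Rpl27, Rpl36, Rpl38, Rplp0, Rps4x, Rps15, Rps19 and Rps29, the sites included those at Rpl7, Rpl10, Rpl14, Rpl22, Rpl23a, Rpl29, Rpl32, Rpl35 and Rpl37a, with 2 sites at Rpl29. The motif read along the strand of the gene at 16 of 25 sites (64%), beside 56.8% of wild-type brain promoter peaks with the motif, and 23 of the 25 lay upstream of every start. The exceptions were Rpl22, where it was centred 425 bp downstream in an intron, and Rpl23a, 330 bp downstream in an intron. The upstream motif TGCAGTNCC, with at most 2 mismatches in the 30 bases 5′ of the core, was called at 6 of 25 sites, beside 19.1% of those promoter peaks. These were the sites of Rpl10a, Rpl13a, Rpl26, Rpl27, Rpl38 and Rplp0. How often this call is made in sequence without the upstream motif was not measured. The site at Rpl27 had 1 mismatch, as did that of Rpl26 printed above. It is shown for its upstream motif and lies in no annotated exon or intron.
Rpl27, chr11:101442124-101442172, minus strand: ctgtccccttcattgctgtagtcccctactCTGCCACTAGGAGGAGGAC

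Across several genes the core motif stood in nearly the same sequence. The sites at Rpl14, Rpl29, Rpl37a and Rps2, printed here to show the resemblance, were identical to one another at 77.6 to 93.9% of their 49 bases over the 6 pairs, while no other pair among the sites compared exceeded 59.2% (median 36.7% over 319 pairs).
Rpl14, chr9:120570796-120570844, plus strand: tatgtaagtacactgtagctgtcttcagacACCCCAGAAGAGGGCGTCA
Rpl37a, chr1:72710701-72710749, plus strand: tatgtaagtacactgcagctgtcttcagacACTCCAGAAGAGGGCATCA
Rpl29, chr9:106428758-106428806, minus strand: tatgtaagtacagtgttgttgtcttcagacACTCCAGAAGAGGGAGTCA
Rps2, chr17:24719180-24719228, minus strand: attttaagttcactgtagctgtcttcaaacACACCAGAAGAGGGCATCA
In the reference genome all 49 bases of each of these sites are soft-masked as repeat sequence, and the repeat family was not identified here. Relative to the nearest start they were centred between −874 and −550 bp, and that of Rps2 fell within an intron of the annotated gene. Peaks at these sites were low. Rpl37a had 19 and 20 reads in brain and no promoter peak elsewhere. At Rpl14 the 2 brain peaks held 15 and 13 reads, and a mutant lung peak of 9 reads lay 1 bp from the start without the motif. The peak at the Rpl29 site was the one listed in wild-type brain (22 reads) and wild-type lung (20 reads), and that at the Rps2 site was listed in mutant brain only (19 reads). Among wild-type brain peaks with the core motif, more than 50% of its 19 bases were soft-masked at 7 of 22 members (31.8%), 8.03% of protein-coding promoter peaks and 19.0% of all peaks. In wild-type lung the order against all peaks was the other way, with 4 of 22 members (18.2%), 7.58% of promoter peaks and 22.2% of all peaks. The members' share was above that of promoter peaks in all 6 lists, and above that of all peaks in the brain and heart lists but not in either lung list.

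Other sequence features of the promoters were compared from 250 bp before to 50 bp after the main start. The letters CCGGAAG, the core bound by ETS factors, were found on either strand in 25 of 75 members (33.3%) and in 11.2% of all protein-coding promoters, and AAGATGG, bound by YY1, in 10 (13.3%) and 6.45%. The GC box GGGCGG was found in 53.3% and 45.4%, TATAAA in 10.7% and 12.7%, and the NRF1 motif in 5.33% and 6.14%. GC content had a median of 56.0% in both sets, while the observed to expected ratio of CpG was 0.861 against 0.556. The base at the annotated main start was a C in 24 members (32%, beside 17.4% of protein-coding genes). At least 8 successive C or T bases stood within 50 bp of that start in 50 members (66.7%, beside 35.2%). A run of at least 5 C or T bases spanned the annotated start itself at 16 members (21.3%, beside 9.51%). The start of Rpl37, a member in all lists, is shown as an example of these 16, with the C and T run that spans it in capitals.
Rpl37, chr15:5116630-5116659, plus strand: tggcgggggtgCTTTCTCTTCCggtctctt
Of the 75 members 28 (37.3%) held a small nucleolar RNA gene within them, beside 1.27% of protein-coding genes. The counts were 4 of the 19 members in all lists, 19 of the 37 in 1 to 5 lists and 5 of the 19 without a peak. Among all protein-coding genes the share was 1.51% of those in all lists and 0.93% of those without a peak. In this promoter window the CTCF core motif was found in 17.3% of members and 18.01% of all protein-coding genes, in 11 of the 19 members present in all lists (57.9%, beside 49.04% of all protein-coding genes present in all lists), and in 0 of the 19 members without a peak (beside 9.38% of such genes). The 11 members include Rpl37, which had no motif called within 100 bp of a summit. A match of letters is a description and does not show that a factor binds there.

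The question of the genotype comparison was where CTCF occupied the genome in mutant embryos. In brain, every ribosomal protein gene with a wild-type promoter peak also had one in the mutant, and 12 had one in the mutant only. The kept peaks were 38 of 38 (90.8 to 100%), beside 93.5% of protein-coding genes, and of the 37 members without one 12 (32.4%, 19.6 to 48.5%) had one in the mutant, beside 15.5%. Of the members 12 had a brain peak in the mutant only and 25 in neither list. For translation factor genes these counts were 16 and 34, for mitochondrial ribosomal protein genes 8 and 42, and for proteasome genes 4 and 23. These differences were not tested. The 5 highest of the 12 members were Rps15a with 20 reads, Rpl7 and Rps2 with 19 each, Rpl39 with 18 and Rpl35 with 17. Rpl18 also had 17. The 12 pileups lay between 11 and 20 reads, whereas the 38 shared peaks held between 13 and 426 reads in the mutant, with a median of 97. All 12 were thus below the median of the shared peaks. Rpl7 had a wild-type brain peak of 59 reads just outside the limit, at 1117 bp.

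In heart, 19 members had a peak in both lists, 7 in the wild type only and 1 in the mutant only. The kept share was 73.1% (53.9 to 86.3%), beside 63.1% of protein-coding genes. The wild-type pileups of 6 of the 7 were 25 reads at Rpl32, 16 at Rps26, 15 at Rps9, 14 at Rps18, 13 at Rpl23a and 8 at Rpl15, whereas the 19 kept peaks held between 14 and 71 reads. Of the 7, only Rpl32, Rps26, Rps9 and Rps18 reached the range of the kept peaks. The peak at Rps20, a small-subunit protein, was in the mutant list only, with 24 reads. It was the 1 gain among 49 members without a wild-type peak (2.04%, 0.36 to 10.7%), beside 1.12% of such protein-coding genes.

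In lung, 36 members had a peak in both lists, 9 in the wild type only and 4 in the mutant only, and 36 of 45 wild-type peaks were kept (66.2 to 89.1%), beside 72.3% of protein-coding genes. The members of the wild type only were Rpl18 with 14 reads, Rpl15, Rpl17, Rpl27a and Rps16 with 11, Rpl7a, Rpl21 and Rps25 with 10, and Rpl23 with 9. Those of the mutant only were Rpl39 with 11 reads, Rpl14 and Rps24 with 9, and Rpl41, which encodes one of the smallest eukaryotic proteins, with 7. These were 4 of 30 members without a wild-type peak (13.3%, 5.31 to 29.7%), beside 5.26% of such protein-coding genes. All 13 members listed in 1 genotype only lay below the medians of the shared peaks, 98.5 reads in wild-type and 98 in mutant lung. Rpl39 and Rpl41 were in the mutant list only in brain as well as in lung, and Rpl15 was in the wild-type list only in heart as well as in lung. Some of these members had a peak in the other genotype between 1 and 2 kb from a start. Rpl41 had wild-type peaks of 46 reads at 1378 bp in brain and 65 reads at 1388 bp in lung, and Rpl14 had one of 52 reads at 1278 bp in wild-type lung. In mutant lung, Rpl7a had a peak of 17 reads at 1222 bp and Rps16 one of 24 reads at 1840 bp.

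The mutant list thus held 12 more members than the wild-type list in brain, 6 fewer in heart and 5 fewer in lung. The lists differ in length, the mutant one being longer in brain (38390 against 36034 regions) and shorter in heart (11515 against 21059) and lung (32498 against 44386). With both lists of an organ cut to the length of the shorter one by their −log10 q, the mutant lists held 8 more members in brain, 4 more in heart and 11 more in lung. Over all protein-coding genes they then held 1465, 669 and 2181 more, so for members and for all genes alike the direction in heart and lung turned with list length.

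**Figure D4:**
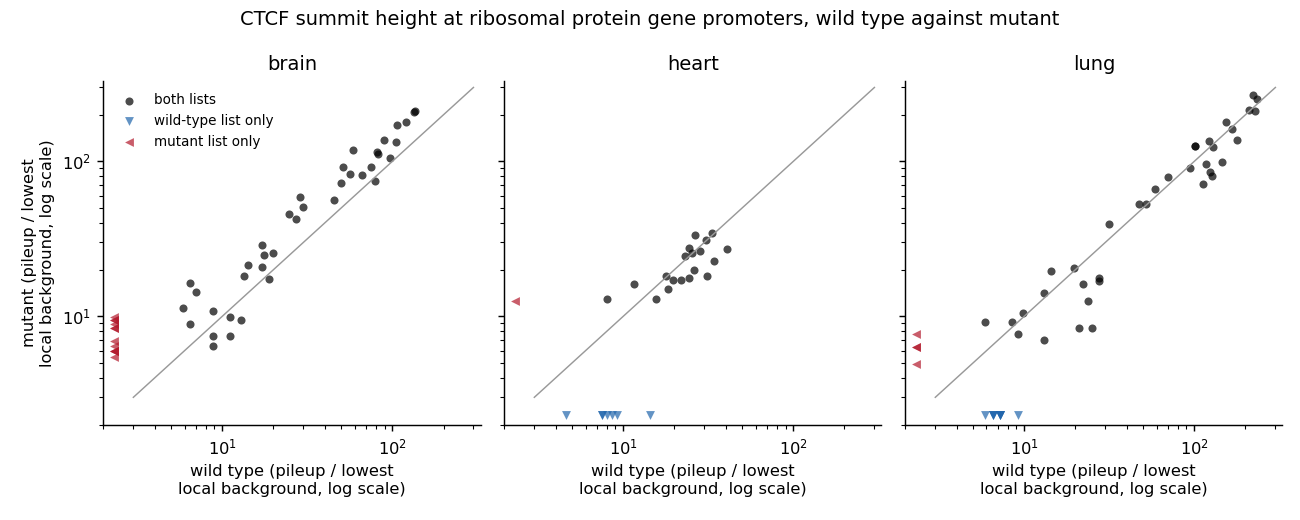
Summit pileup divided by the lowest local background of the list in the wild type (horizontal axis, log scale) and the mutant (vertical axis, log scale) for each member, by organ; black points have a peak in both lists, triangles along an edge have one in the named list only, and the grey line marks equal values. Points at the edges are low on the axis they occupy, and in brain most black points lie above the line.

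At peaks present in both lists, each pileup was divided by the lowest local background of its list, and the mutant value was set against the wild-type value as a log2 ratio. Spike-in factors do not enter these ratios. They are therefore read only relative to other sites of the same organ and give no absolute change in CTCF binding. The summits of both lists lay within 100 bp of each other at 34 of 38 members in brain, 19 of 19 in heart and 32 of 36 in lung (beside 89.97%, 93.7% and 85.2% of protein-coding promoters), and at the others the ratio compares peaks at different places. In brain the median over 38 members was 0.49 and 7 of 38 ratios were below 0, beside a median of 0.48 and 21.9% below 0 over all protein-coding promoters. The highest ratios were those of Rpl22, 1.34 (11 and 33 reads), and Rpl32, 1.03 (49 and 119 reads), and the lowest those of Rpl34, −0.59 (19 and 15 reads), and Rpl29, −0.46 (22 and 19 reads). At Rpl22 the summits of the 2 lists lay 390 bp apart, at −4 bp from the nearest start in the wild type and 384 bp downstream of it in the mutant. At Rpl29 they lay 243 bp apart, each at a core motif of its own. Among the 34 members with both brain summits within 100 bp, the highest ratios were those of Rpl32 and Rpl37, 1.02 (100 and 240 reads), and the lowest those of Rpl34 and Rpl14, −0.45 (15 and 13 reads). The members' median in brain was close to that of promoters in general, while the median over all sites in both lists was −0.02.

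In heart the median ratio over 19 members was −0.09 and 10 ratios were below 0, beside −0.12 and 62.1% over protein-coding promoters. Rps4x (14 and 25 reads) and Rps15 (20 and 31 reads) had the highest ratios, 0.69 and 0.48, and Rpl5 (54 and 35 reads) and Rplp0 (71 and 52 reads) the lowest, −0.77 and −0.60. Rps15 is a small-subunit protein near the decoding centre, and Rps4x is encoded on the X chromosome. In lung the median over 36 members was −0.01 and 18 ratios were below 0, beside −0.04 and 53.8%. Rpl7 (9 and 13 reads) and Rpl22 (22 and 28 reads) were highest, at 0.63 and 0.45, and Rps9 (38 and 12 reads) and Rpl34 (32 and 12 reads) lowest, at −1.56 and −1.31. The ratios of Rpl7 and Rpl34 compare different peaks, since their lung summits lay 912 and 994 bp apart between the genotypes. Among members with both lung summits within 100 bp, Rpl22 and Rpl37 (0.33, 154 and 180 reads) were highest and Rps9 and Rpl10 (−0.90, 36 and 18 reads) lowest, with a median of 0.03 beside −0.05 over protein-coding promoters. In both organs the members' median over all shared peaks was within 0.05 of that of promoters in general on the scale of pileup over lowest background. Over all shared sites the medians were −0.25 in heart and −0.35 in lung. The lung median moved with the scaling. With fold enrichment as deposited it was 0.96, beside 0.72 over protein-coding promoters, in a comparison whose wild-type list had the raised local background given above.

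Members with and without the upstream motif were set side by side in each organ. The members were those with the core motif in 2 or more lists, whereas the comparison promoters had it at the wild-type peak of the organ. The members without the upstream motif thus included Rpl22 in brain and Rpl7 in lung, whose wild-type peaks there lacked the core motif. In brain the median ratio was 0.33 over 6 members with the upstream motif and 0.56 over 16 without, beside 0.39 and 0.56 over all protein-coding promoters with the core motif. In heart it was −0.19 over 6 and −0.03 over 8, beside −0.17 and −0.11, and in lung −0.24 over 6 and 0.04 over 16, beside −0.11 and −0.00. The ranges of the 2 kinds of member overlapped in all 3 organs. Among members with both summits within 100 bp, the brain ratios ran from 0.12 to 0.64 over 6 members with the upstream motif and from −0.45 to 1.03 over 14 without, and the medians were those given above in each organ.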

How the data were processed

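Chromatin was cross-linked and sonicated, and human HEK293T chromatin was added as a spike-in. Per the study's methods and notes, the authors used Trim Galore for trimming, Bowtie2 for alignment to a joint mouse (mm10) and human (hg38) genome and MACS2 for peak calling, separately for each ChIP library and on confidently mapped reads. Of the 12 samples, 6 were ChIP and 6 input libraries, and only the 6 deposited peak lists were used. Spike-in factors do not enter these lists. In the deposited lists the score is a whole number made from the q-value, which was left aside. The authors' peak caller gave fold enrichment, the ratio of summit pileup to local background with 1 added to each, and p-values and q-values as −log10 values. The whole-number pileup was recovered from fold enrichment and p-value and was whole within 0.05 reads for 100% of lines (100% of 20000 simulated pileups were recovered). No total read counts were in the lists, so depth is known only through the lowest local background.

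Genes and start sites came from GENCODE basic vM21 and sequence from the RefSeq copy of GRCm38. Several transcript starts per gene were allowed, and the main start was that of the best-supported protein-coding transcript. The core motif matrix (19 columns, 1897 sites from 2000 peaks, uniform base composition) was called at a match probability of 1e-04 or less. On simulated windows it was called at 97.5% of 2000 planted sites and in 3.85% of windows without one. With 1 library per organ and genotype no test between genotypes was made, and shares have 95% Wilson intervals. The members, comparison lists and motifs were chosen with earlier results of these data known. Named genes were those with a peak in all lists, the 5 highest, those in 1 genotype only (the 5 highest where over 10), those with the core motif in 2 or more lists, those without a peak, and the 2 highest and 2 lowest ratios per organ. Some members that this rule names are counted but not reported by name here. Resemblance between sites was searched for after the sequences were seen. Alternatives were windows of 500 bp and 2 kb, a −log10 q of at least 5, gene 5′ ends only, region overlap, lists of equal length, other scalings of height and other motif calls. The tools were pysam 0.24.0, statsmodels 0.14.6, matplotlib 3.10.9, pandas 2.3.3, scipy 1.17.1 and numpy 2.4.6 under Python 3.11.15.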

Additional observations from a re-analysis of the deposited data

Results flagged for a closer look

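The mutant minus wild-type number of ribosomal protein genes with a promoter peak had opposite signs in the 3 organs, at 12 for brain, −6 for heart and −5 for lung. Over all protein-coding genes the same difference was 2240, −973 and −1247, with the same sign in each organ. With 1 library per organ and genotype this difference between organs was not tested. The mutant list was the longer one in brain and the shorter one in heart and lung.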

How the results depend on the processing

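Of 91 values recomputed under an alternative, 76 kept their direction and stayed within their interval or within 1.5 times of a count, 8 moved and 7 changed direction. The count of members in all 6 lists ranged from 16 to 20, and it was 19 without the wild-type lung list, an alternative chosen after seeing the data. With the lists of an organ cut to equal length, 16 members had a peak in wild-type heart and 29 in wild-type lung, and the mutant minus wild-type difference became 4 in heart and 11 in lung, while it stayed positive in brain. Relative to the median over all shared sites, the median log2 pileup ratio of the members was 0.16 in heart and 0.33 in lung. In lung it was 0.96 with fold enrichment as deposited and 0.031 with a summit limit of 500 bp, from a value near 0. With only members whose summits in both lists lay within 100 bp, chosen after seeing the data, it was 0.028. With the core motif called at 1e-05 or less, its share of member peaks was 28.9% in wild-type and 26% in mutant brain, 42.3% and 45% for heart, 26.7% and 30% for lung. The libraries carry no replicate numbers, and a comparison of genotypes paired by organ was not made. With 3 pairs an exact test could not go below p = 0.25. Depth limits the lists at their low end, where the lowest pileups were between 7 and 9 reads, so a member without a peak may hold a lower one.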
